A study of Arabidopsis thaliana with 18 samples.

Results

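Microtubules are hollow polymers of alpha- and beta-tubulin dimers, nucleated on complexes that hold gamma-tubulin and shaped by associated proteins that bundle, stabilize, sever or track them. In an elongating root cell the cortical array lies mostly across the growth axis and guides the deposition of cellulose, so its orientation bears on the direction in which the cell, and the file of cells, expands. Mutants in tubulins and in microtubule-associated proteins are known for roots that twist and skew, among them *lefty* (alpha-tubulin), *spiral* and *wave-dampened*, and these genes were therefore read here in roots that skewed, waved or grew straight.

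The genes chosen were 40 loci, namely 6 alpha-, 9 beta- and 2 gamma-tubulins, 5 of the SPIRAL1 family (*SP1L2* is not in the list), 9 of the MAP65 family, 3 EB1 genes, *WVD2* and *WDL1*, and 1 each of *SPR2*, *MOR1*, katanin and *CLASP*. By locus, 14 of the 40 had a probe set in the array's annotation table, on 13 of the 22746 probe sets tested (the annotation names 14265 genes in all), and the other 26 loci had none there and are not analysed here. Of the 13, 12 stand for 1 gene each: *TUA1* (AT1G64740), *TUA6* (AT4G14960), *TUB1* (AT1G75780), *TUB5* (AT1G20010), *TUB6* (AT5G12250), *TUB7* (AT2G29550), *TUB9* (AT4G20890), *SPR1* (AT2G03680), *SP1L3* (AT3G02180), *SP1L4* (AT5G15600), *SP1L5* (AT4G23496) and *MAP65-6* (AT2G01910). The remaining probe set matches several alpha-tubulin loci, *TUA3* (AT5G19770) and *TUA5* (AT5G19780), and is called the shared alpha-tubulin probe set, since its signal belongs to neither gene alone. The 13 are thus 8 tubulin, 4 SPIRAL1 family and 1 MAP65 probe sets. No gamma-tubulin, *SPR2*, *MOR1*, katanin, *CLASP*, EB1, *WVD2* or *WDL1* value is given.

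Transcript levels were measured in dissected roots of wild type *Arabidopsis thaliana* seedlings of 2 ecotypes, Col-0 and WS (Wassilewskija), at 8 days of age in continuous light. Seedlings stood upright for 3 days and then spent 5 days at an angle of the growth plate (Agp) of 45° (tilted backward) or 135° (tilted forward), while those at Agp 90° stayed upright for all 8 days. The 6 groups of ecotype and angle had 3 ATH1 arrays each, 18 in all, and each array carried a pool of 5 roots, so that error terms describe the spread between pools. Backward tilt is known to give waving roots in both ecotypes, with skewing added in WS, and forward tilt skewed WS roots that wave less.

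Signals are MAS5 intensities on a linear scale, deposited at a trimmed mean of 500 on every array, with array medians of 193.5 to 208.4. Tests used log2(signal + 32) after quantile normalization in limma, with Benjamini-Hochberg adjustment of p over the 22746 probe sets. A member is called higher or lower at an adjusted p under 0.05, with no minimum fold. A mark of RNA degradation, the signal of the 3' actin control divided by that of the 5' one, stood at 6.06 on Col-0 Agp 90° replicate 2 and 6.05 on WS Agp 90° replicate 3 and 3.85 to 4.76 on the other 16 arrays. *PYK10*, a beta-glucosidase of roots, had signals of 12800 to 21000, and *RCA*, a gene of green tissue, 649 to 1450. These were the only root and green tissue markers on the lists with a probe set in the annotation table (1 of 8 and 1 of 6). Of the 9 markers of dividing cells and 6 of xylem, 0 had one there. The table gives no gene for 8730 probe sets, so the array may still hold probes for them. A difference in signal in these whole roots can come from fewer cells of a type or from less RNA per cell, which cannot be told apart.

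None of the 13 probe sets passed the test for a change with the tilt of the plate. In each of the 4 comparisons with upright roots of the same ecotype, 0 of 13 members were called, and the background over all probe sets was 0.022% in Col-0 at Agp 45°, 0.0% in Col-0 at Agp 135°, 0.985% in WS at Agp 45° and 0.0528% in WS at Agp 135°. At an unadjusted p under 0.05 in limma, 0 members passed in Col-0 at either angle (background 7.35% at Agp 45° and 6.73% at Agp 135°), and 2 of 13 passed in WS at each angle, all lower (background 12.5% at Agp 45°, of which 6.68% lower, and 10.6% at Agp 135°, of which 5.46% lower). Averaged over both ecotypes, 0 members were called at Agp 45° (background 0.91%) or at Agp 135° (0.0044%), and 2 and 0 had an unadjusted p under 0.05 (background 12.0% and 10.6%). The smallest adjusted p was 0.723 in Col-0 at Agp 45°, 0.75 in Col-0 at Agp 135°, 0.125 in WS at Agp 45° and 0.35 in WS at Agp 135°. The comparisons at 45° and 135° of an ecotype share their upright arrays.

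The 95% intervals show, for 1 member in 1 comparison at a time, how large a change could have been missed. In Col-0 at Agp 45°, the 95% intervals of the log2 fold changes of the 13 members reached from -0.49 to 0.39 at their outermost, which is 0.71-fold to 1.31-fold. At Agp 135° they reached from -0.57 to 0.36 in Col-0 and from -0.53 to 0.51 in WS. The interval that reached furthest was that of *SP1L5* in WS at Agp 45°, with a lower end of -0.81 (0.57-fold). The highest upper end of any interval, in WS at Agp 135°, was 1.43-fold on this scale. Since each interval is a separate 95% interval, these ends are not a joint bound on all members. The median log2 fold change of the 13 lay between -0.036 and 0.036 in the 4 comparisons, and that of all probe sets between -0.005 and 0.009.

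**Figure D1:**
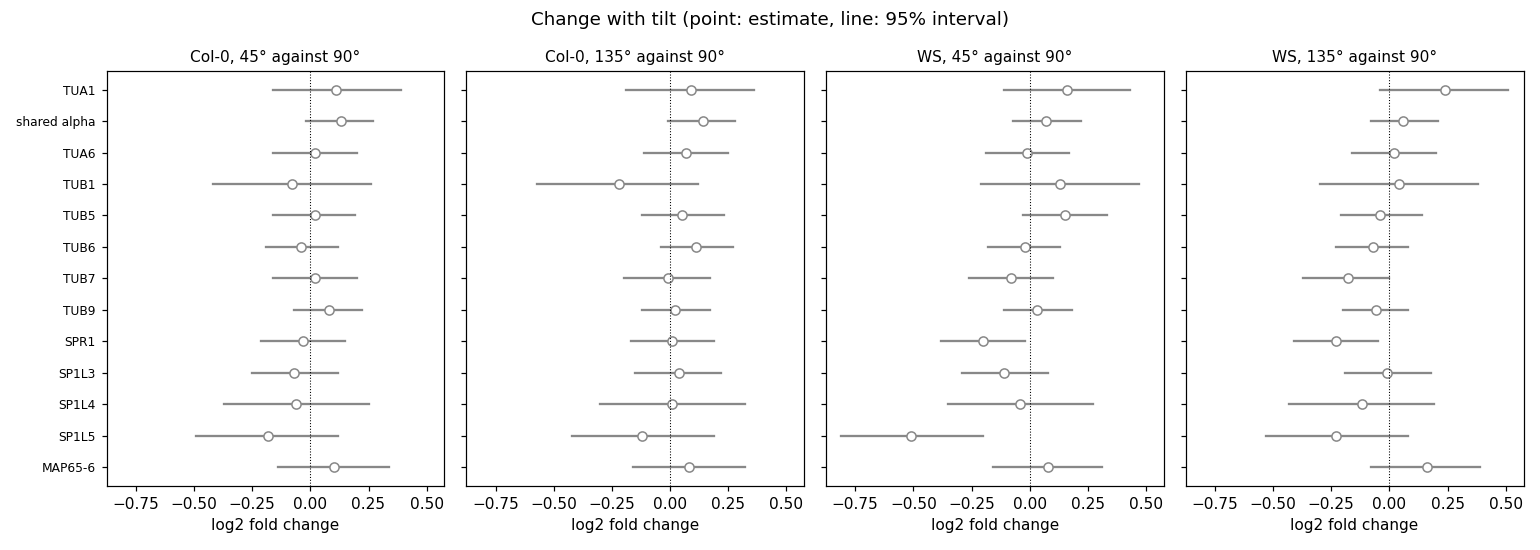
Log2 fold change of each member against upright roots of the same ecotype (horizontal axis, log2 units), with 95% intervals from limma, for both ecotypes and both tilts. All symbols are open because 0 of 13 members were called in any panel, and the point furthest from 0 is *SP1L5* in WS at Agp 45° (-0.51).

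Among the tubulins, the shared alpha-tubulin probe set read 5890, 5270 and 5360 on the upright Col-0 arrays, 6040, 6150 and 6250 at Agp 45° and 5920, 6300 and 5920 at Agp 135°. Its tilted Col-0 arrays lay above all upright ones at both angles, by log2 fold changes of 0.13 (standard error 0.0669, adjusted p = 0.723) and 0.14 (adjusted p = 0.75). In WS it read 5280, 5750 and 5960 upright, 6330, 6440 and 5910 at Agp 45° and 5890, 5840 and 6140 at Agp 135°, with overlap at both angles. Averaged over the ecotypes, its log2 fold change at Agp 45° was 0.10 (unadjusted p = 0.0497, adjusted p = 0.416), which limma did not call.

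*TUA1*, an alpha-tubulin best known from pollen, had signals of 226 to 384 over the 18 arrays. Its log2 fold change was positive in all 4 tilt comparisons, from 0.09 to 0.24, and the highest of these, in WS at Agp 135°, had an interval of -0.04 to 0.51. *TUB1*, a beta-tubulin with a preference for roots, was the tubulin with the widest scatter, with upright to tilted values of 2150, 2130 and 2040 against 2310, 1700 and 1500 in Col-0 at Agp 135° (log2 fold change -0.22, adjusted p = 0.837). In WS the *TUB1* values were 0.13 at Agp 45° and 0.04 at Agp 135°.

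*TUB7* gave the only unadjusted p under 0.05 among the tubulins within an ecotype, in WS at Agp 135°. It read 2190, 2180 and 2320 upright and 1830, 1950 and 2090 tilted forward, so the tilted arrays all lay below the upright ones, with a log2 fold change of -0.18 (standard error 0.0853, unadjusted p = 0.0467, adjusted p = 0.461). Without upright WS replicate 3, the highest of the 3, the *TUB7* value was -0.16 (unadjusted p = 0.116, adjusted p = 0.684 in limma). In Col-0 the same comparison gave -0.01, and the difference between the ecotypes, -0.17, was not called (adjusted p = 0.849).

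The SPIRAL1 family encodes small plant-specific proteins at the growing ends and along the lattice of microtubules. *SPR1*, its founding member, was also found as *SKU6* through the skewing of mutant roots. *SPR1* read 5720, 5250 and 6690 in upright WS roots, 5460, 5060 and 5270 at Agp 45°, and 5240, 4910 and 5050 at Agp 135°. On the linear scale the upright and backward-tilted arrays of *SPR1* overlap, while after quantile normalization the tilted arrays lay below the upright ones at both angles. The log2 fold changes were -0.20 at Agp 45° (standard error 0.0846, unadjusted p = 0.0322, adjusted p = 0.347) and -0.23 at Agp 135° (unadjusted p = 0.0174, adjusted p = 0.35), neither called. The highest upright value of *SPR1* came from WS replicate 3, the array with an actin ratio of 6.05, and without it the log2 fold changes were -0.16 (unadjusted p = 0.111, adjusted p = 0.589) and -0.19 (unadjusted p = 0.0677, adjusted p = 0.609) in limma. In Col-0, where *SPR1* read 4510 to 5480 over all 9 arrays, they were -0.03 and 0.01.

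*SP1L5* had the lowest p-value of any member with tilt. Its signal was 1370, 1320 and 1600 in upright WS roots, 867, 1010 and 1080 at Agp 45° and 1350, 1150 and 1110 at Agp 135°. All 3 backward-tilted WS arrays lay below all 3 upright ones, and the log2 fold change of -0.51 (0.7-fold) had an interval of -0.81 to -0.20, an unadjusted p of 0.00292 and an adjusted p of 0.125. The same replicate 3 held the highest upright value of *SP1L5*, and without it the log2 fold change at Agp 45° was -0.42 (unadjusted p = 0.0178, adjusted p = 0.325 in limma). In Col-0 the *SP1L5* signal was 959, 988 and 1260 upright and 1170, 776 and 868 at Agp 45°, groups that overlap, with a log2 fold change of -0.18 (adjusted p = 0.842). The interaction of ecotype and Agp 45°, coded as the WS change minus the Col-0 change, was -0.32 (95% interval -0.76 to 0.11, adjusted p = 0.73). Averaged over both ecotypes, *SP1L5* had a log2 fold change of -0.34 at Agp 45° (unadjusted p = 0.00388, adjusted p = 0.14). It passed without Col-0 Agp 45° replicate 1, the highest of its group at 1170 (-0.43, adjusted p = 0.042 in limma). Leaving out any other single array of these groups, or both arrays with the high actin ratio, gave no call.

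All 4 SPIRAL1 family members had a negative log2 fold change in WS at Agp 45° (median -0.153), in WS at Agp 135° (median -0.173) and in Col-0 at Agp 45° (median -0.063), and 1 of 4 did in Col-0 at Agp 135°. Of all probe sets, 47.5%, 50.3%, 51.2% and 51.3% had a negative value in these comparisons. Only *SPR1* and *SP1L5* in WS had an unadjusted p under 0.05 among the 4. *SP1L3* and *SP1L4* stood closest to 0 of the 4 in WS at Agp 45°, with -0.11 and -0.04. *MAP65-6*, of the family that cross-links microtubules, was positive in all 4 comparisons, from 0.08 to 0.16, with intervals that all included 0. The difference between the ecotypes in the response to tilt was called for 0 of 13 members, with a smallest adjusted p of 0.73 at Agp 45° and 0.755 at Agp 135° in limma, and 0 members also had an unadjusted p under 0.05 for either interaction. The 95% intervals of the members reached from -0.76 to 0.69 at Agp 45° and from -0.57 to 0.75 at Agp 135°, so differences of that size could have been missed. Over all probe sets 0.0% were called for either interaction, and 7.35% and 6.87% had an unadjusted p under 0.05.

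After quantile normalization, upright arrays and tilted arrays that did not overlap were found for 1 of 13 members in Col-0 at Agp 45° (background 12.7%), 2 in Col-0 at Agp 135° (11.8%), 5 in WS at Agp 45° (17.2%) and 3 in WS at Agp 135° (16.3%). The 5 in WS at Agp 45° were *TUA1* and *TUB5*, above the upright arrays (background 8.9%), and *TUB7*, *SPR1* and *SP1L5*, below them (8.32%). On the linear scale the arrays of *TUA1*, *TUB7* and *SPR1* overlap in that comparison, and those of *TUB5* and *SP1L5* do not. As shares of the 13, the counts of 1, 2, 5 and 3 are 7.69%, 15.4%, 38.5% and 23.1%. A single member is 7.69%, and no difference from the background was tested.

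Between the ecotypes, some members did pass the test. Averaged over the 3 angles, with 9 arrays of each ecotype, *TUA6*, *TUB6* and *SP1L5* were higher in WS and *TUB5* and *SP1L4* were lower in WS. All 5 differences were small, between 0.85-fold and 1.22-fold. They make up 5 of 13 members (38.5%), where the background over all probe sets was 29.0%, with 16.0% higher and 12.9% lower in WS. Of the 8 tubulin probe sets 2 were higher, 1 lower and 5 not called, and of the 4 SPIRAL1 family members 1 was higher, 1 lower and 2 not called. At an unadjusted p under 0.05 the count was 6 of 13, with *TUA1* as the sixth, and the background 38.6%. The count of 5 fell to 3 without WS Agp 90° replicate 3, Col-0 Agp 90° replicate 1 or Col-0 Agp 45° replicate 3. The median log2 difference of the 13 was 0.099, against 0.031 for all probe sets.

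**Figure D2:**
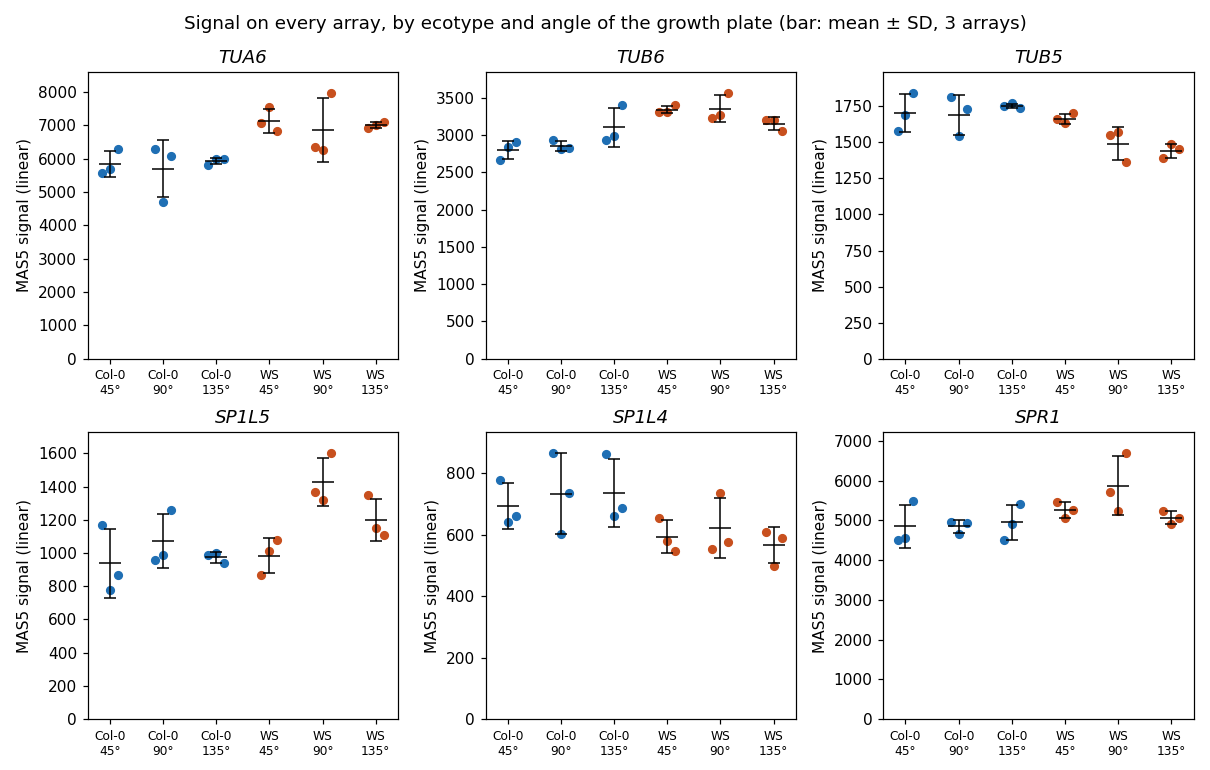
MAS5 signal (vertical axis, linear scale from 0) of 6 members on each of the 18 arrays, by ecotype and Agp, with Col-0 in blue and WS in orange, and the mean ± SD of 3 arrays in black. The WS arrays of *TUA6* lie between 6260 and 7970 and the Col-0 arrays between 4710 and 6300, and *SP1L5* is highest in upright WS roots (1320 to 1600).

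*TUA6*, an alpha-tubulin gene in which a *lefty* mutation with skewing roots was found, read 6300, 4710 and 6090 in upright Col-0 roots and 6360, 6260 and 7970 in upright WS roots. At Agp 45° it read 5580, 5680 and 6290 in Col-0 and 7060, 7540 and 6830 in WS. At Agp 135° the signals were 5820, 5990 and 5990 in Col-0 and 6910, 7010 and 7100 in WS. In 8 of 9 WS arrays the signal was above that of every Col-0 array, and after quantile normalization this held for all 9. *TUA6* was the only member whose 2 sets of 9 arrays did not overlap, as did 7.97% of all probe sets. The difference over the angles was 0.18 on the log2 scale (1.14-fold, standard error 0.0489, adjusted p = 0.00967), and 0.27 on the deposited scale without quantile normalization (adjusted p = 0.00524). The lowest Col-0 value and the highest WS value both came from the arrays with the high actin ratio, and without these 2 arrays the difference was 0.14 (adjusted p = 0.0237). At single angles it was 0.21, 0.18 and 0.16 at Agp 90°, 45° and 135°, and 0 of these 3 was called (adjusted p of 0.133, 0.193 and 0.252).

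The beta-tubulin gene *TUB6* read 2930, 2810 and 2820 in upright Col-0 roots and 3220, 3270 and 3560 in upright WS roots, with no overlap. At Agp 45° the values were 2660, 2840 and 2910 against 3310, 3310 and 3400, again with no overlap, but at Agp 135° Col-0 read 2930, 2980 and 3400 and WS 3200, 3200 and 3050, which do overlap. *TUB6* was 0.14 higher in WS over the angles (1.1-fold, standard error 0.0419, adjusted p = 0.0222). By angle, the log2 difference was 0.19 at Agp 90° (adjusted p = 0.0979), 0.21 at Agp 45° (adjusted p = 0.0756) and 0.01 at Agp 135° (adjusted p = 0.968), and the interaction at Agp 135° was -0.19 (95% interval -0.40 to 0.03, adjusted p = 0.775). Without both arrays with the high actin ratio, *TUB6* over the angles missed the threshold (0.13, adjusted p = 0.0574).

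*TUB5* went the other way from *TUB6*, another beta-tubulin. Its signals were 1810, 1540 and 1730 in upright Col-0 roots against 1550, 1570 and 1360 in WS, 1580, 1690 and 1840 against 1660, 1630 and 1700 at Agp 45°, and 1750, 1770 and 1740 against 1390, 1490 and 1450 at Agp 135°. Only the arrays at Agp 135° did not overlap, and there the log2 difference was -0.26 (standard error 0.0838, adjusted p = 0.0566), against -0.16 at Agp 90° and -0.03 at Agp 45°. Over the angles the log2 difference was -0.15 (0.9-fold, standard error 0.0484, adjusted p = 0.0288), a call that was lost without WS Agp 90° replicate 3, WS Agp 45° replicate 2, WS Agp 135° replicate 1, Col-0 Agp 90° replicate 1 or Col-0 Agp 45° replicate 3 (adjusted p of 0.0503 to 0.0615).

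*SP1L5* showed the largest ecotype difference of the 13 over the angles, 0.29 on the log2 scale (1.22-fold, standard error 0.0828, adjusted p = 0.0157). The signal over the 9 arrays of an ecotype was 776 at the lowest, 988 at the median and 1260 at the highest in Col-0 and 867, 1150 and 1600 in WS, so the ecotypes overlap. In upright roots all 3 WS arrays lay above all Col-0 arrays (log2 difference 0.43, adjusted p = 0.0618), as they did at Agp 135° (0.32, adjusted p = 0.167), and at Agp 45° they overlapped (0.11, adjusted p = 0.71). Without both arrays with the high actin ratio the difference over the angles was 0.24 (adjusted p = 0.0656).

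*SP1L4* was lower in WS, with a log2 difference over the angles of -0.24 (0.85-fold, standard error 0.0838, adjusted p = 0.0455). Its Col-0 signals were 601, 685 and 864 at the lowest, median and highest, and those in WS 498, 580 and 734, with 6 of 9 WS arrays below every Col-0 array. Its adjusted p was the highest of the 5 and rose to 0.0588 when 1 in place of 32 was added to the signals. Leaving out a single array lost the call in 12 of 18 cases (adjusted p of 0.0527 to 0.0938). The 6 arrays whose removal kept it were WS Agp 90° replicate 2, WS Agp 45° replicate 1, WS Agp 135° replicate 1 and replicate 2 of Col-0 at each angle.

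**Figure D3:**
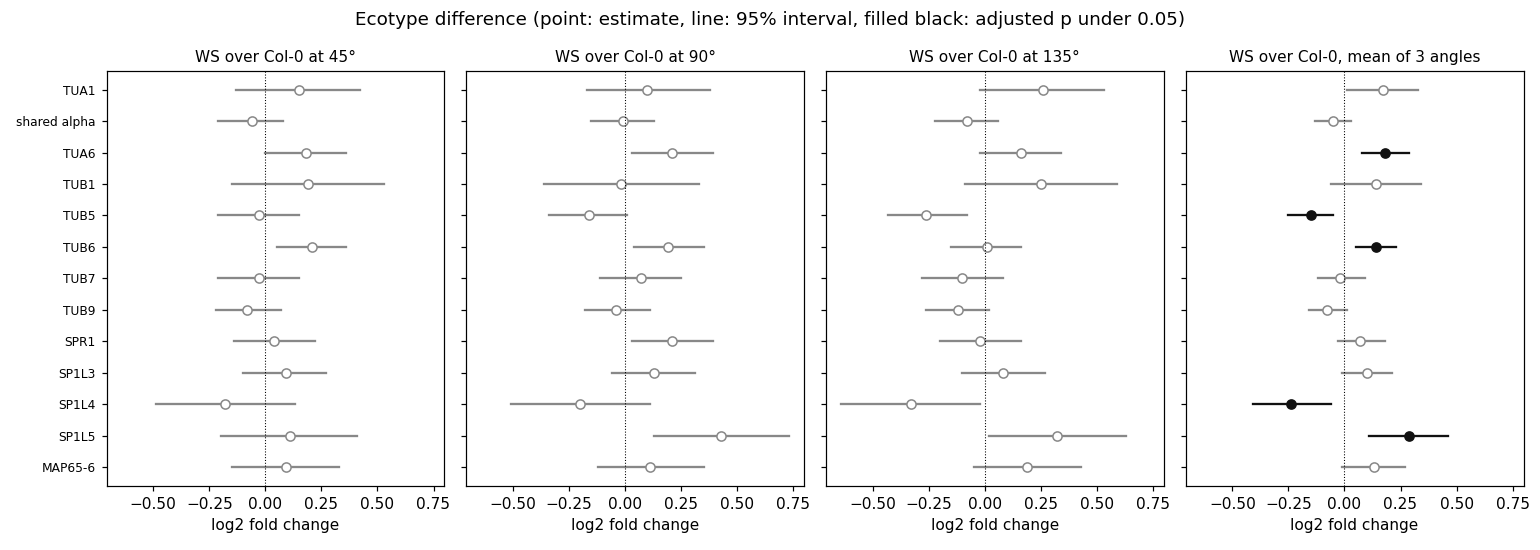
Log2 fold change of WS over Col-0 (horizontal axis, log2 units) for the 13 members at each Agp and over the 3 angles, with 95% intervals from limma and filled symbols for an adjusted p under 0.05. The filled symbols stand only in the panel over the angles, for *TUA6* (0.18), *TUB6* (0.14) and *SP1L5* (0.29) on the right and *TUB5* (-0.15) and *SP1L4* (-0.24) on the left.

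At a single angle, with 3 arrays against 3, 0 of 13 members were called between the ecotypes, where the background was 13.1% at Agp 90°, 13.0% at Agp 45° and 13.5% at Agp 135°. At an unadjusted p under 0.05, limma passed 4 members at Agp 90° (*TUA6*, *TUB6*, *SPR1* and *SP1L5*, all higher in WS), 2 at Agp 45° (*TUA6* and *TUB6*, higher) and 3 at Agp 135° (*SP1L5* higher, *TUB5* and *SP1L4* lower), against a background of 24.9%, 25.7% and 25.6%. Normalized arrays of the ecotypes did not overlap for 4 members at Agp 90°, 3 at Agp 45° and 6 at Agp 135°, where the background was 27.3%, 30.9% and 31.4%. The 6 at Agp 135° were *TUA6*, *SP1L5* and *MAP65-6*, above in WS, and *TUB5*, *TUB9* and *SP1L4*, below. In upright roots *SPR1* had signals of 4960, 4670 and 4930 in Col-0, all below the 5720, 5250 and 6690 of WS (log2 difference 0.21, adjusted p = 0.124). At the tilted angles the *SPR1* difference was 0.04 and -0.02.

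Of the 8 members not called over the angles, *TUA1* (0.17, adjusted p = 0.105), *MAP65-6* (0.13, adjusted p = 0.148) and *TUB9* (-0.08, adjusted p = 0.157) came nearest to the threshold. The shared alpha-tubulin probe set (-0.05, interval -0.13 to 0.03) and *TUB7* (-0.02, interval -0.12 to 0.09) had intervals on both sides of 0, as did *TUB9* (interval -0.16 to 0.01). So did *SP1L3* (0.10, interval -0.01 to 0.21), *SPR1* (0.07, interval -0.03 to 0.18), *TUB1* (0.14, interval -0.06 to 0.34) and *MAP65-6* (interval -0.01 to 0.27). Of these 8 members only *TUA1* had an interval on 1 side of 0 (0.01 to 0.33).

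Of 7 listed root hair markers, only 2 expansin genes had a probe set, and both were lower in WS over the angles. They were *EXPA7* (-0.44, adjusted p = 0.0315) and *EXPA18* (-0.42, adjusted p = 0.0139), and their summed signal was 886 to 1660 in Col-0 and 711 to 1060 in WS. Over the angles 12.9% of all probe sets were called lower in WS. At single angles neither gene was called (smallest adjusted p of 0.0661 in limma). The part of these 2 genes in the ecotype differences above was not tested. *PYK10* had signals of 12800 to 17000 in Col-0 and 14300 to 21000 in WS, but a log2 difference of -0.05 after quantile normalization (adjusted p = 0.44). *RCA* had 652 to 1450 and 649 to 1400 (-0.16, adjusted p = 0.523), and neither was called. ATH1 probes were designed on the Col-0 sequence, and how well they match WS transcripts was not tested.

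The residual SD between arrays of a group, on the log2 scale, was 0.0457 for the shared alpha-tubulin probe set, 0.0476 for *TUB9* and 0.0601 for *TUB6*, and 0.0837 to 0.0923 for *TUB5*, *SPR1*, *TUA6*, *TUB7* and *SP1L3*. It was 0.134 for *MAP65-6*, 0.16 for *TUA1*, 0.182 for *SP1L5*, 0.185 for *SP1L4* and 0.208 for *TUB1*. The median of all probe sets was 0.173, and 10 of 13 members lay below it. The spread falls as signals rise, with a median of 0.131 in the probe sets brighter than the median and 0.231 in the dimmer ones. All 13 members belong to the brighter ones, and 8 of 13 lay below 0.131. Between the highest and the lowest of the 18 arrays, whatever their ecotype and angle, *TUB9* varied 1.17-fold, the shared alpha-tubulin probe set 1.2-fold and *SP1L5*, the widest of the 13, 2.04-fold.

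Other genes of microtubule function were read from a list of 45, of which 14 had a probe set of their own in the annotation table. With tilt, 0 of the 14 were called in any of the 4 comparisons (smallest adjusted p of 0.546 in limma, and 0 at an unadjusted p under 0.05), and their median log2 fold changes lay between -0.03 and 0.04. The background in these comparisons was 0.0% to 0.985% called, and 6.73% to 12.5% at an unadjusted p under 0.05. Over the angles, 29.0% of all probe sets were called, 16.0% higher and 12.9% lower in WS. Of these 14 genes, 0 were higher in WS, 3 were lower and 11 were not called, and no difference from those shares was tested. The 3 were *TON1B* (-0.21, adjusted p = 0.00676), of the complex that sets up the preprophase band, *TFCE* (-0.21, adjusted p = 0.018), a chaperone cofactor for tubulin folding, and AT1G54460, called *WDL2* on the list (-0.24, adjusted p = 0.00856), a relative of *WVD2*. *TFCE* was also lower in WS at Agp 90° alone (-0.36, adjusted p = 0.0373), with a mean signal of 258 against 347 in Col-0. That is 1 of the 14 called at Agp 90°, where the background was 13.1%. *TON1B* has a close paralog, *TON1A*, and the probe set may read both. The other 4 relatives of *WVD2* with a probe set, the 2 kinesins and the 3 of 4 genes for the katanin partner KTN80 that had a probe set were among the 11 that were not called.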

How the data were processed

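Roots of 6 groups (2 ecotypes at 3 angles, 3 Affymetrix ATH1 arrays each) were compared. The intensities the authors deposited are MAS5 signals made in Expression Console (version not given in the sources used here) and scaled to a trimmed mean of 500 (2% left out at each end). No detection calls were used. The study itself tested values from RMA. That method starts from array images, so it was not run here.

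A pseudocount of 32 was added, log2 taken and arrays quantile normalized, and 64 of 22810 probe sets (controls) were left out. In limma 3.58.1 under R 4.3.3, each of the 6 groups had its own mean, which left 12 residual degrees of freedom to add to 3.45 of the prior. Tests are two-sided, standard errors and 95% intervals come from the model, and "over the angles" is the mean of the 3 ecotype contrasts. Probe sets were matched to loci through gene identifiers of the array annotation and of RefSeq (TAIR10.1, names only): 13513 have 1 gene, 503 several and 8730 none here. No sequence or position is given. Nothing says whether arrays of a group came from separate plates, so p-values measure the spread between these arrays.

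The members, the other gene lists and the alternatives were chosen with earlier results of these data known. Every member may be named, and of the other lists those past the adjusted test or markers. The fit was tested on simulated data. Alternatives were the deposited scale, pseudocounts of 1 and 100, an intensity trend, a filter on the 40% dimmest probe sets, only the compared groups, a replicate block, each array left out, both arrays with the highest actin ratio left out, a minimum log2 fold change of 1, and the unadjusted p.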

Additional observations from a re-analysis of the deposited data

How the results depend on the processing

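The count of members called under tilt stayed at 0 in Col-0 at both angles under all 16 alternatives, and for forward tilt averaged over the ecotypes under all 22. One of these alternatives, the minimum log2 fold change of 1, can only remove calls, so it had to give 0 wherever 0 were called. In the main fit the background was 0.022% in Col-0 at Agp 45°, 0.0% at Agp 135° and 0.0044% for forward tilt averaged over the ecotypes. A count of 0 of 13 therefore does not set the members apart. In WS it stayed at 0 under 15 of 16 at each angle, and the unadjusted p gave 2 at Agp 45° and 2 at Agp 135°. For backward tilt averaged over the ecotypes the unadjusted p gave 2, and leaving out single arrays gave 0 to 1. Both interactions stayed at 0 under all 22 alternatives. In the main fit 0.0% of all probe sets were called for either interaction, so this count does not set the members apart either.

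Between the ecotypes at single angles, where 0 were called, some members crossed the threshold. At Agp 90° a pseudocount of 100 gave 2 and an intensity trend 2 (*TUB6* and *SP1L5*), leaving out the dimmest probe sets gave 1, the unadjusted p gave 4, and single arrays left out gave 0 to 1. At Agp 45° the deposited scale, the pseudocount of 100, the dim filter and the trend each gave 1 (*TUB6*) and the unadjusted p 2. At Agp 135° the same 4 settings and the fit without both arrays with the highest actin ratio each gave 1 (*TUB5*), and the unadjusted p gave 3. The cause was not tested. In the main fit 13.1% of all probe sets were called at Agp 90°, 13.0% at Agp 45° and 13.5% at Agp 135°. The share of all probe sets called under each alternative was not counted, so these crossings cannot be set against it.

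Over the angles, 5 of 13 members were called (38.5%), against a background of 29.0% in the main fit. Leaving out single arrays gave 3 to 6, both arrays with the highest actin ratio 3 (1 higher and 2 lower), and a minimum log2 fold change of 1 gave 0. The counts of 3 came without WS Agp 90° replicate 3, Col-0 Agp 90° replicate 1 or Col-0 Agp 45° replicate 3, each with 3 higher and 0 lower. No sign turned among the 5 under 25 refits, and *TUA6* kept its call in all 25, *TUB6* and *SP1L5* in 24, *TUB5* in 20 and *SP1L4* in 12. A fit to the compared groups is the same fit there. With the replicate block, 5 members were called over the angles and 0 in every other comparison. Over 45 same-numbered pairs of arrays from different groups, the residuals correlated at -0.00285 in the median, between -0.229 and 0.146. The closest array of another group bore the same number for 5 of 18. No pairing by replicate number was seen, though such correlations cannot show that same-numbered arrays were handled apart. The number of arrays limits the precision.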
